A study of Macaca mulatta with 25 samples.

Results

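Genes that make, bind and store fatty acids were followed in blastocysts of the rhesus macaque, embryos in which a fluid cavity separates the inner cell mass from the outer trophectoderm. The set was chosen by name and comprised 10 genes: the fatty acid binding protein gene FABP5, the synthesis genes ACLY, ACACA, FASN, SCD and ELOVL6, and the lipid droplet genes PLIN2, PLIN3, DGAT1 and ABHD5. Each matched 1 row of the 35395 genes in the count table, and all 10 were among the 13934 genes that passed the filter on low counts. They were chosen by their role, with earlier results of these data known. The embryos came from the eggs of females treated from about 2.5 years of age, just before puberty, with 10 females per group at the start. Controls (C) carried cholesterol implants and ate standard chow with 15% fat, 59% carbohydrate and 26% protein. The T group ate the same chow and carried testosterone implants that held the blood level of this androgen at 3 to 5 times normal. The WSD group ate an obesogenic Western-style diet with 36% fat, 46% carbohydrate and 18% protein, and the TWSD group received both testosterone and this diet. The labels do not state whether WSD females carried a control implant. When 5 to 6 years had passed, ovarian stimulation was possible in 10 females of C, 7 of T, 6 of WSD and 3 of TWSD, and ill health, mainly endometriosis, had removed the others. The eggs of all groups were fertilised in vitro and the embryos grown in the same medium for up to 8 days. RNA was sequenced from 5 C, 10 T, 8 WSD and 2 TWSD libraries, named below by group and title number. The labels do not say which mother or father an embryo had, nor whether a library is 1 embryo, so libraries of a group may share a mother, and p-values speak of the spread among the libraries at hand.

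Cells build fatty acids from citrate. ATP citrate lyase (ACLY) splits it into acetyl-CoA, acetyl-CoA carboxylase (ACACA) makes malonyl-CoA in the step that commits carbon to the pathway, and fatty acid synthase (FASN) assembles palmitate, which ELOVL6 lengthens and SCD desaturates. Fatty acid binding proteins carry the products through the cytosol, DGAT1 joins them into triglyceride, and droplets that store triglyceride are coated by perilipins and emptied by lipases. Mammalian eggs and early embryos hold lipid droplets and use them as a source of energy and membrane.

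Library totals ran from 14219100 to 35544500 counts, and 12.6% to 23.3% of the tested genes lay under 1 CPM (a count scaled to the size of its library) in every library but TWSD 2, where the share was 38.0%. Levels below are CPM with TMM scaling. They are not divided by transcript length, so levels of different genes are not compared. GATA3, a trophectoderm factor, was between 84.2 and 875 CPM in the 25 libraries. Of other trophectoderm markers, KRT18 and DAB2 never dropped under 366 and 97.6 CPM. The lowest control value was only 1.57 CPM for CDX2, 1.12 for ENPEP, 2.30 for PLAC8 and 4.86 for KRT19. Ranked by mean log2 CPM over 10 trophectoderm markers, C 1 (5.61) and C 12 (6.28) came last, with every other library from 6.92 to 9.47. The pluripotency factor POU5F1 was at 206 CPM or more in all but C 11 (8.51) and C 12 (0.627). C 8, C 11, C 12 and T 1 stood apart: CGA, the alpha subunit of chorionic gonadotropin, was at 3025, 2400, 1073 and 1004 CPM there and at most 4.24 elsewhere. The summed level of the 16 genes of an unfolded protein response list was 54194 CPM in C 12, 17443 in TWSD 2, 14484 in C 11 and 4092 to 8947 in the other libraries. In TWSD 2 the chaperone gene HSPA5 alone made up 12779 CPM of it. The mean log2 CPM of the same list was 6.99, 8.36 and 10.13 for C 8, C 11 and C 12 and lay between 5.35 and 6.47 elsewhere, with TWSD 2 at 5.90. The 7 sperm markers summed to at most 3.76 CPM in any library. In C 11, primitive endoderm markers summed to 20097 CPM, of which APOA1 made up 17177, against at most 5054 in any other library. Cumulus and granulosa markers summed to 1334 CPM there, nearly all from VCAN (667), HAS2 (267), TNFAIP6 (212) and INHA (188). FSHR and AREG of the same list were at 0 in every control. Blood markers summed to 289 CPM in C 11, of which CD14 made up 240. In C 12 fat cell markers summed to 242, of which FABP4 made up 239. The share of cells of each kind and the amount of RNA per cell cannot be told apart in such bulk libraries.

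FABP5 was the member that passed the test. It rose in embryos of testosterone-treated mothers and in those of mothers on the Western-style diet, each against controls, and the other 9 genes passed in no comparison. With testosterone 1 of the 10 members was higher and 0 lower, where 0.337% of all tested genes were called higher and 4.11% were called in either direction. With the diet it was again 1 higher and 0 lower, against 0.466% of all genes called higher and 4.07% in either direction. None of the 10 was called in TWSD against C (1.2% of all genes called), T against WSD (0%), TWSD against T (0.0502%), TWSD against WSD (0.0502%) or the interaction (0.0718%), which is the diet's effect with testosterone less its effect without. At an unadjusted p under 0.05 the interaction held 3 of the 10 members, beside 1889 of the 13934 tested genes, and T against WSD held 0 members. In T against WSD, where edgeR called 0 genes, 237 genes had an unadjusted p under 0.05 and DESeq2 called 6, none of them a member. The median log2 change of the 10 members was -0.12 in T, 0.13 in WSD and -0.23 in TWSD, beside -0.12, -0.12 and -0.38 for all tested genes. T, WSD and TWSD were each set against the same 5 C libraries, so these comparisons are not independent of each other.

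**Figure D1:**
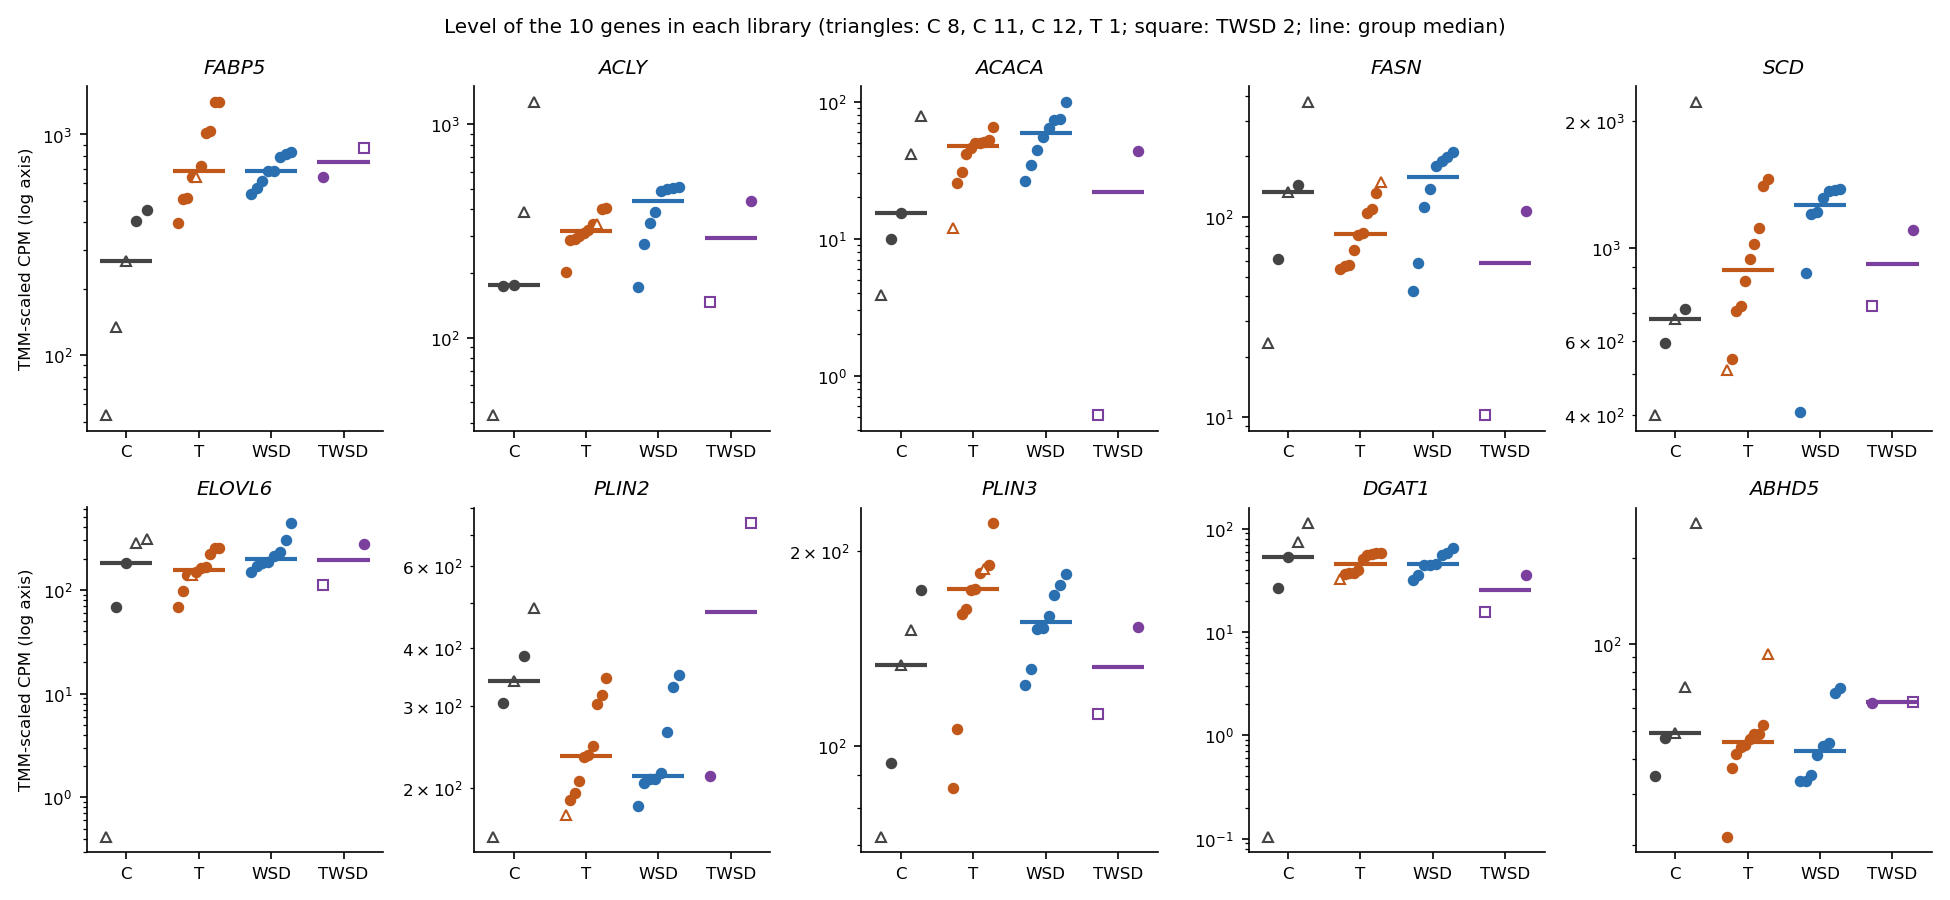
TMM-scaled CPM on a log axis of the 10 genes in each of the 25 libraries by group, with a line at the group median, triangles for C 8, C 11, C 12 and T 1 and a square for TWSD 2. For FABP5 all 8 WSD libraries (538 to 830 CPM) lie above all 5 C libraries (53.4 to 455). In the other 9 panels the C points span the T and WSD points or overlap with them. The share of all tested genes that separate like FABP5 was not computed.

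**Figure D2:**
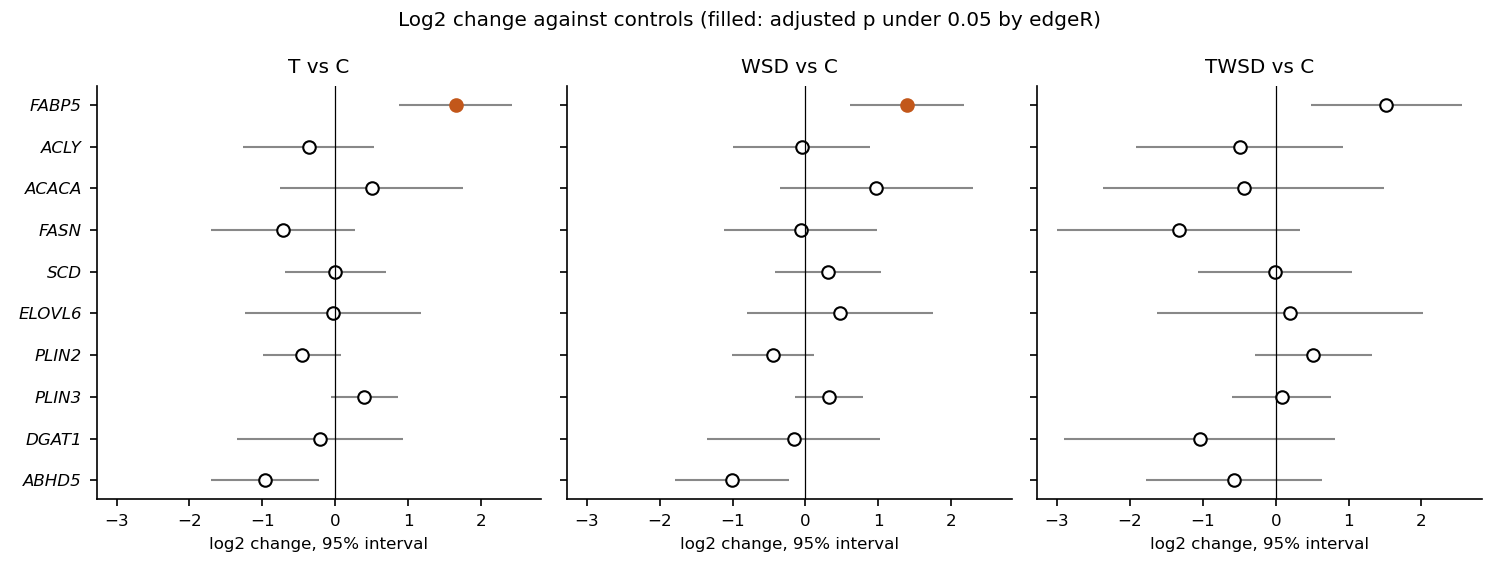
Fitted log2 change of each gene against C with its 95% interval, for T, WSD and TWSD. The filled points, with an adjusted p under 0.05 by edgeR, are FABP5 in T (1.65) and in WSD (1.39); all other points are open.

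FABP5 (ENSMMUG00000064718) encodes a small cytosolic protein that binds long-chain fatty acids and delivers them within the cell. It was at 455, 407, 267, 135 and 53.4 CPM in C 1, C 2, C 8, C 11 and C 12. The 3 controls with high CGA were thus below the other controls. In T the lowest library was T 11 at 396 CPM, the median 681 and the highest T 7 at 1408. In WSD the lowest was WSD 7 at 538 CPM, the median 682 and the highest WSD 1 at 830, and the TWSD libraries were at 867 and 641. All 8 WSD libraries, both TWSD libraries and 9 of the 10 T libraries lay above every control, and T 11 lay below C 1 and C 2. The share of all tested genes that clear the controls in this way was not computed. The separation can therefore not be called particular to FABP5. The group means were 263 ± 172 CPM in C (SD, n = 5), 829 ± 368 in T (n = 10), 691 ± 113 in WSD (n = 8) and 754 ± 160 in TWSD (n = 2). The coefficient of variation was lowest in WSD at 0.164, against 0.443 in T and 0.652 in C.

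The fitted increase of FABP5 was 3.15-fold with testosterone (log2 1.65 ± 0.38 SE, adjusted p = 0.0147 by edgeR's quasi-likelihood test) and 2.62-fold with the diet (1.39 ± 0.38, adjusted p = 0.0382). In TWSD the change was of like size but missed the threshold (1.52 ± 0.50, adjusted p = 0.104), and DESeq2 called it (1.45, adjusted p = 0.0462). DESeq2 called 1995 of the 13934 tested genes in that comparison, where edgeR called 167, so 1 member called is not particular to this set. The treated groups were not told apart from each other. The difference between T and WSD was 0.26 on the log2 scale with a 95% interval of -0.36 to 0.89 (adjusted p = 1.00), TWSD lay -0.14 from T (-1.16 to 0.89) and 0.13 from WSD (-0.90 to 1.15). The interaction was -1.53 ± 0.65 (adjusted p = 0.298), with a 95% interval of -2.87 to -0.19 and an unadjusted p of 0.0266. The interval is below 0, and the value did not pass after adjustment over all genes. Without C 8, C 11 and C 12 the interaction was -0.87 ± 0.52 (adjusted p = 0.442 by edgeR).

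These calls depend on the control libraries. Without C 8, C 11 and C 12, the remaining controls C 1 and C 2 averaged 431 CPM, the change with testosterone was 0.98 ± 0.38 (adjusted p = 0.941) and that with the diet 0.72 ± 0.38 (adjusted p = 0.760). In that fit edgeR called 0 genes in all with testosterone (667 at an unadjusted p under 0.05) and 1 with the diet (899). Leaving out C 12 alone gave 1.40 (adjusted p = 0.0546) with testosterone, the one library of the 25 whose loss ended this call. With the diet, leaving out any of C 8, C 11, C 12, WSD 1, WSD 3, WSD 4, WSD 8, WSD 9 and WSD 10 ended the call, with changes of 1.13 to 1.42 and adjusted p-values of 0.0514 to 0.109. Limma voom with quality weights gave 1.44 (adjusted p = 0.214) and 1.20 (adjusted p = 0.323), and a fit of the compared groups alone 1.65 (adjusted p = 0.0787) and 1.41 (adjusted p = 0.116). The diet's call was also lost with library totals as the scaling (1.43, adjusted p = 0.0566) and without C 12 and TWSD 2 together (1.15, adjusted p = 0.0879). Without C 8, C 11, C 12 and T 1 the changes were 0.99 (adjusted p = 0.878) and 0.69 (adjusted p = 0.710). In every one of these settings the direction stayed higher. Other measures moved with FABP5 among the controls. The summed level of 10 syncytiotrophoblast genes was 274 and 608 CPM in C 1 and C 2, and 13044, 4472 and 9690 CPM in C 8, C 11 and C 12, so the controls with high markers had low FABP5, but within these 3 the order was not opposite. The summed unfolded protein response was 5002, 5512, 6007, 14484 and 54194 CPM in C 1, C 2, C 8, C 11 and C 12, the reverse of the order of FABP5. By the mean log2 CPM of that list C 1 (5.95) lay above C 2 (5.93), so the full reverse order held for the sum only. TWSD 2 had a sum of 17443 CPM with FABP5 at 867 CPM, above every control. T 1 had 4806 CPM of syncytiotrophoblast markers with FABP5 at 645 CPM, inside the T range. The part of cell makeup and of cell stress in the FABP5 result was not tested, and how reads of near-identical FABP5 copies were counted is not known here.

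**Figure D3:**
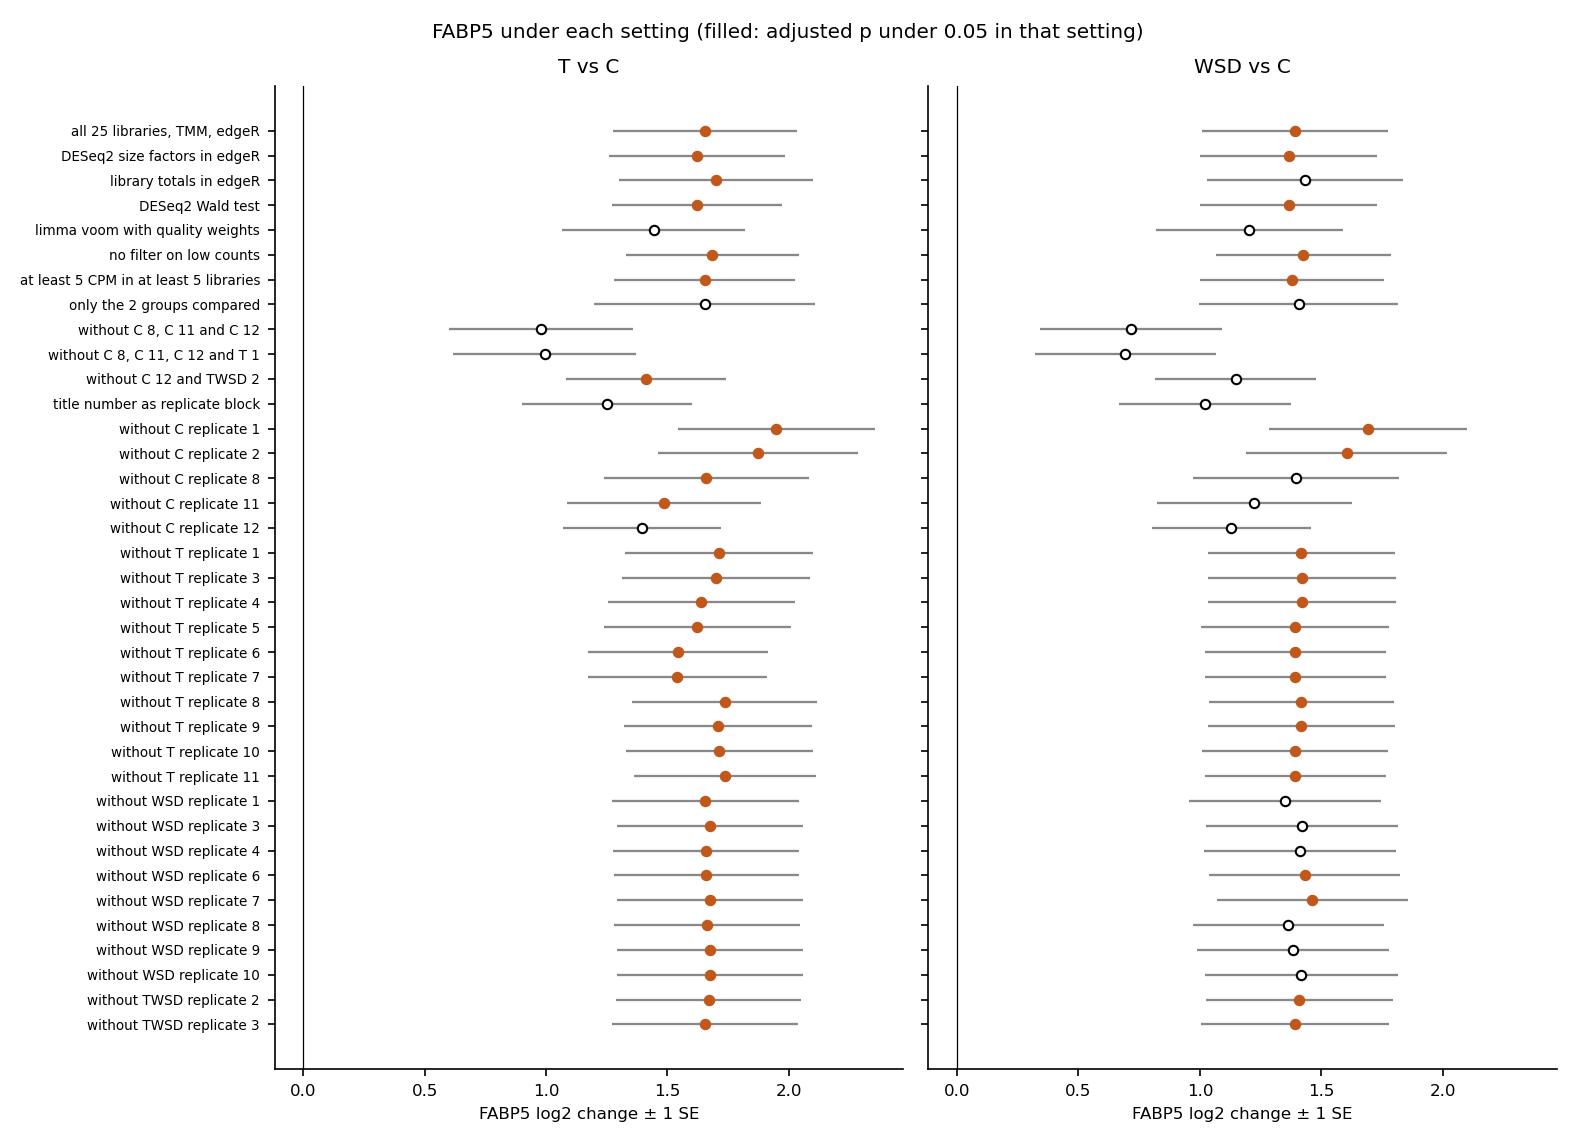
Log2 change of FABP5 ± 1 SE for T (left) and WSD (right) against C under each setting and with each library left out, filled where the adjusted p was under 0.05. All estimates are above 0, from 0.98 to 1.95 in T and from 0.69 to 1.69 in WSD, and the smallest are those without C 8, C 11 and C 12.

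The 3 genes that carry citrate to palmitate were not called. ACLY (ENSMMUG00000018931) was at 177, 174, 389, 1276 and 43.3 CPM in C 1, C 2, C 8, C 11 and C 12. The control libraries thus held both the highest and the lowest of the 25 values, and the groups overlapped fully. ACLY lay between 203 and 406 CPM (median 315) in T and between 173 and 507 (median 438) in WSD, and was at 147 and 438 in the TWSD libraries. Its log2 change was -0.36 ± 0.44 in T and -0.05 ± 0.46 in WSD. Without C 11 alone these became 0.70 and 1.01, and without C 8, C 11 and C 12 they were 0.90 and 1.21 (adjusted p = 0.977 and 0.517 by edgeR), so the sign turned with C 11, and in WSD also without WSD 1 or WSD 6. In TWSD it was -0.50 ± 0.69, with 0.57 without C 11 and 0.098 without TWSD 2.

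ACACA (ENSMMUG00000009349) was at 15.3, 9.88, 41.4, 79.0 and 3.87 CPM in C 1, C 2, C 8, C 11 and C 12. Its range was 12.0 to 65.3 (median 47.5) in T and 26.2 to 99.7 (median 59.4) in WSD. Most treated libraries were above C 1, C 2 and C 12, and below C 11. The change was 0.50 ± 0.61 in T and 0.97 ± 0.65 in WSD (adjusted p = 0.749 and 0.462), and 1.79 and 2.26 without C 8, C 11 and C 12 (adjusted p = 0.977 and 0.664). The TWSD libraries differed most for this gene: ACACA was at 43.5 CPM in TWSD 3 and at 0.515, or 8 counts, in TWSD 2. The change in TWSD was -0.44 ± 0.94, was 0.55 without TWSD 2 and was -5.84 without TWSD 3, where TWSD 2 stood alone for its group.

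FASN (ENSMMUG00000012811) was at 143, 61.1, 132, 375 and 23.4 CPM in C 1, C 2, C 8, C 11 and C 12. It lay between 54.5 and 148 (median 82.0) in T and between 42.7 and 211 (median 158) in WSD, all inside the control range. The TWSD libraries were at 107 and, in TWSD 2, 10.2 CPM, the lowest of all 25. The log2 change of FASN was -0.72 ± 0.48 in T (adjusted p = 0.468) and -0.06 ± 0.51 in WSD (adjusted p = 0.973), and T minus WSD was -0.66 ± 0.42 (adjusted p = 1.00). Without C 11 the first became -0.02 and that of WSD 0.64, a value that was also positive without WSD 1 or WSD 6. In TWSD the change was -1.33 ± 0.81 (adjusted p = 0.331), with -3.85 without TWSD 3 and -0.45 without TWSD 2, where a single library stood for the group.

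SCD and ELOVL6 modify the chain that FASN makes, and neither was called. SCD (ENSMMUG00000058462), the delta-9 desaturase that makes oleate, was at 716, 591, 675, 2228 and 399 CPM in C 1, C 2, C 8, C 11 and C 12. T ran from 511 to 1456 (median 886) and WSD from 406 to 1383 (median 1267), with the TWSD libraries at 726 and 1099. The groups overlapped, and in WSD 6 of 8 libraries lay between 1206 and 1383 CPM with WSD 9 at 869 and WSD 1 at 406. The log2 change of SCD was 0.00 ± 0.34 in T, 0.31 ± 0.35 in WSD and -0.01 ± 0.51 in TWSD. Without C 11 these became 0.63, 0.94 and 0.61, the diet's value being at an adjusted p of 0.0990 by edgeR. ELOVL6 (ENSMMUG00000050694), which adds a pair of carbons to palmitate, was at 68.6, 181, 284, 307 and 0.418 CPM in C 1, C 2, C 8, C 11 and C 12. The C 12 value is 8 counts and lies far under the next library. T ran from 68.9 to 253 (median 155) and WSD from 149 to 439 (median 197), and TWSD stood at 112 and 275. The change of ELOVL6 was -0.03 ± 0.59 in T, 0.48 ± 0.62 in WSD and 0.20 ± 0.89 in TWSD. Without C 12 these were -0.35, 0.15 and -0.11, and without C 11 the T value was 0.30.

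Of the droplet proteins, PLIN2 (ENSMMUG00000013997), the perilipin that coats droplets in most cells and whose protein is stabilised by stored lipid, was lower in most T and WSD libraries than in most controls without passing the test. It was at 305, 384, 157, 339 and 486 CPM in C 1, C 2, C 8, C 11 and C 12. T ran from 174 to 345 (median 234) and WSD from 182 to 350 (median 212), above C 8 and mostly below the other controls. The log2 change was -0.45 ± 0.26 in T and -0.45 ± 0.27 in WSD (adjusted p = 0.372 and 0.411). In TWSD the libraries were at 742 (TWSD 2, the highest of all 25) and 212 CPM. The change of PLIN2 was 0.51 ± 0.39 in TWSD against C, 0.97 ± 0.35 against T (adjusted p = 0.247) and 0.96 ± 0.36 against WSD (adjusted p = 0.244), and the interaction was 1.41 ± 0.44 (adjusted p = 0.160). Without TWSD 2 these were -0.64, -0.19, -0.20 and 0.25. Without TWSD 3 those against T and WSD were 1.60 and 1.60 and the interaction was 2.05, each resting on TWSD 2 alone.

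PLIN3 (ENSMMUG00000014816), a perilipin found in the cytosol and on new droplets, varied least among the members, by 3.06-fold from the lowest to the highest library. It was at 94.0, 174, 133, 72.2 and 151 CPM in C 1, C 2, C 8, C 11 and C 12, from 86.0 to 221 (median 175) in T, from 124 to 185 (median 155) in WSD, and at 112 and 153 in TWSD. The groups overlapped, and 5 of 10 T libraries lay above all controls. The log2 change was 0.40 ± 0.22 in T (adjusted p = 0.354), 0.32 ± 0.23 in WSD (adjusted p = 0.502) and 0.08 ± 0.33 in TWSD (-0.16 without TWSD 3).

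DGAT1 (ENSMMUG00000000825), which catalyses the last step of triglyceride synthesis, was at 26.5, 52.7, 73.7, 113 and 0.104 CPM in C 1, C 2, C 8, C 11 and C 12. The C 12 value is 2 counts. T (32.3 to 57.8, median 45.3) and WSD (32.0 to 64.5, median 45.3) had nearly the same range, inside that of the controls, and TWSD stood at 15.7 and 35.9. The log2 change of DGAT1 was -0.20 ± 0.55 in T, -0.16 ± 0.58 in WSD and -1.05 ± 0.90 in TWSD (adjusted p = 0.902, 0.934 and 0.507), and without C 11 the first of these was 0.27 and that of WSD 0.31. The TWSD value was -1.77 without TWSD 3 and -0.56 without TWSD 2.

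ABHD5 (ENSMMUG00000001031), the co-activator of the main triglyceride lipase PNPLA2, had the smallest adjusted p of the uncalled members in T and WSD. It was at 34.8, 47.2, 71.0, 49.2 and 264 CPM in C 1, C 2, C 8, C 11 and C 12. T ran from 21.3 to 92.4 (median 45.8) and WSD from 33.3 to 70.2 (median 42.7), with TWSD at 63.1 and 62.5. All groups overlapped, and C 12 alone stood above every other library. The log2 change was -0.97 ± 0.36 in T (adjusted p = 0.131) and -1.01 ± 0.38 in WSD (adjusted p = 0.133). Without C 12 the changes of ABHD5 were -0.09 and -0.14, and without C 1 both were called (-1.19, adjusted p = 0.0378 in T and -1.23, adjusted p = 0.0443 in WSD). In TWSD the change was -0.57 ± 0.59, and 0.32 without C 12.

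The map of deviations from each gene's median set these profiles side by side. C 12 was the lowest of all 25 libraries for FABP5, ACLY, SCD, ELOVL6 and DGAT1 and the highest for ABHD5, with PLIN2 second only to TWSD 2. C 11 was the highest for ACLY, FASN, SCD and DGAT1 and the lowest for PLIN3, beside its high primitive endoderm markers, whose part in these values was not tested. TWSD 2 was the lowest for ACACA and FASN and the highest for PLIN2, and the same library held SREBF1, the transcription factor that drives fatty acid synthesis genes, at 0.773 CPM against 136 in TWSD 3 and at least 24.1 in the other libraries. Its relative SREBF2, which acts on cholesterol genes, was at 10.0 CPM in TWSD 2, 55.9 in C 12 and at least 215 elsewhere. Low ACACA, FASN, SREBF1 and SREBF2 and high PLIN2 in TWSD 2 stood beside the highest share of tested genes under 1 CPM (38.0%) and a high HSPA5, and the part of RNA quality in them was not tested.

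**Figure D4:**
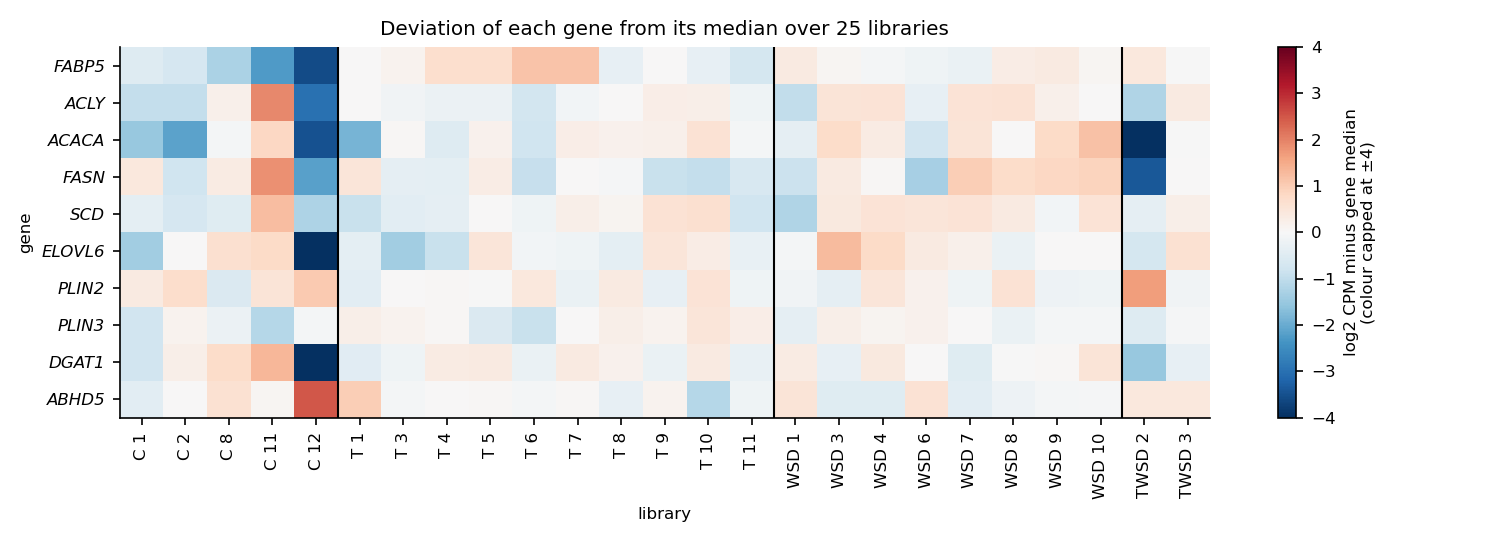
Log2 CPM of each gene minus its median over the 25 libraries, in colour from blue (lower) to red (higher), capped at 4 on either side. C 12 and TWSD 2 hold the darkest blue cells (ELOVL6 at 0.418 and DGAT1 at 0.104 CPM in C 12, ACACA at 0.515 in TWSD 2), and C 11 is red for ACLY, ACACA, FASN, SCD and DGAT1.

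Other genes of fatty acid synthesis, elongation and desaturation, uptake and activation, triglyceride synthesis, droplet coating and lipolysis were taken from 6 lists of 123 genes, of which 90 were tested. Of these 90, 0 rose and 5 fell with testosterone (5.56%, beside 4.11% of all genes), 0 rose and 4 fell with the diet (4.44%, beside 4.07%) and 1 rose and 0 fell with both (1.11%, beside 1.2%). No gene of the lists passed in the other 4 comparisons. Each share is near that of all genes. LPL, among the falls with testosterone and with the diet, passed the filter on low counts mainly through controls where it is high. The 17 triglyceride synthesis genes, the 14 droplet genes and the 10 lipolysis genes held no call in any comparison with C. In the lipolysis list PNPLA2, the lipase that ABHD5 activates, was named because of that link, after its values were seen, with -1.11 ± 0.46 in T, -1.46 ± 0.48 in WSD and -2.65 ± 0.85 in TWSD (adjusted p = 0.178, 0.0850 and 0.0943).

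The fatty acid desaturase genes made up 3 of the 5 falls with testosterone. FADS2, the delta-6 desaturase of polyunsaturated fatty acids, was at 0.705, 3.97, 46.5, 1485 and 7.94 CPM in C 1, C 2, C 8, C 11 and C 12, with a median of 2.04 in T and 4.42 in WSD. FADS1, the delta-5 desaturase, was at 2.53, 9.82, 266, 1124 and 0.366 CPM in the same controls, from 1.00 to 29.5 in T and from 3.07 to 93.7 in WSD. FADS3, a relative of both, was at 7.46, 59.8, 336, 622 and 205 CPM, from 19.6 to 94.0 in T and from 26.5 to 105 in WSD. C 1 and C 2 lay inside or below the treated ranges for FADS1 and FADS3, and the high controls were C 8 and C 11, joined by C 12 for FADS3. The fitted changes in T were -4.51 for FADS1 (adjusted p = 0.0270), -7.19 for FADS2 (adjusted p = 0.00879) and -2.30 for FADS3 (adjusted p = 0.0157), and in WSD -6.08 for FADS2 (adjusted p = 0.0250) and -2.09 for FADS3 (adjusted p = 0.0365). Without C 8, C 11 and C 12 none was called, FADS1 turned to 1.03 and FADS3 to 0.61 in T, FADS2 was -0.12 in T, and FADS2 and FADS3 turned to 1.00 and 0.81 in WSD. Without C 11 alone the T changes of FADS1, FADS2 and FADS3 were -2.51, -2.82 and -1.61 and the WSD changes of FADS2 and FADS3 -1.70 and -1.40, none of them called. Without C 12 alone the calls of FADS1 (-4.84) and FADS3 (-2.37) in T and of FADS2 (-6.39) and FADS3 (-2.16) in WSD were also lost. Those of FADS2 in WSD were lost without WSD 7, WSD 9 or WSD 10 too, and those of FADS3 in WSD without C 8, WSD 1, WSD 4, WSD 7, WSD 8, WSD 9 or WSD 10.

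The remaining calls were of a lipase, a receptor, a kinase subunit and a mitochondrial enzyme. LPL, which releases fatty acids from lipoproteins, peaked with 57.7 CPM in C 12, followed by C 11 with 12.9, and stayed at 2.50 or less in every other library. It reached 1 CPM in 5 libraries, C 8, C 11, C 12, T 3 and WSD 1, and so passed the filter mainly through the controls where it is high. Given for that reason only as a description, its log2 change was -5.57 in T and -5.20 in WSD. The WSD call was lost without any of WSD 3, WSD 4, WSD 6, WSD 7, WSD 8, WSD 9 and WSD 10 (-5.19 to -5.02). With any 1 of the 5 left out it did not pass the filter on low counts, so the calls were not checked without C 11 or C 12. NR1H2, a liver X receptor that responds to oxysterols, was at 128, 89.9, 78.2, 164 and 191 CPM in C 1, C 2, C 8, C 11 and C 12 and at 55.9 to 93.4 in T, and fell by 0.84 (adjusted p = 0.0463). Its change was -0.66 (adjusted p = 0.233) without C 12 and -0.75 (adjusted p = 0.122) without C 11, and the call was also lost without any 1 of the 10 T libraries or WSD 1, WSD 3, WSD 9 or WSD 10. PRKAB1, a subunit of the energy sensor AMPK, which phosphorylates and inhibits ACACA, was at 791 CPM in C 12 and at 77.2 to 133 in the other controls, against 50.3 to 140 in WSD. It fell by 1.45 in WSD (adjusted p = 0.0476). Its change was -0.22 without C 12, where it was not called, and the call was also lost, at -1.56 to -1.37, without any 1 of 9 T libraries (all but T 6) or 7 WSD libraries (all but WSD 6). MECR, a reductase of mitochondrial fatty acid synthesis, was at 226 and 117 CPM in TWSD 2 and TWSD 3, above all other libraries (at most 68.5 for C, 94.4 for T and 99.2 for WSD). It rose by 2.04 ± 0.41 in TWSD against C (adjusted p = 0.0177), and by 1.51 without TWSD 2 (adjusted p = 0.637).

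**Figure D5:**
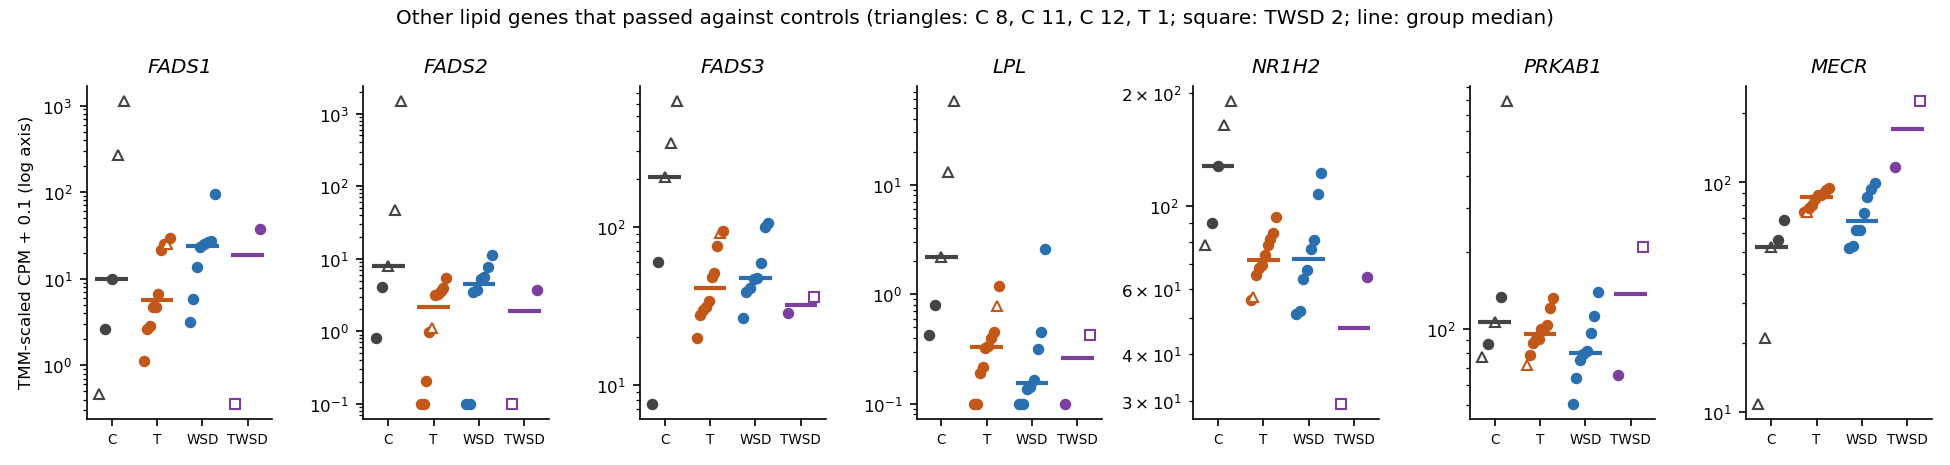
TMM-scaled CPM plus 0.1 on a log axis for the 7 other lipid genes called against C, one point a library, with triangles for C 8, C 11, C 12 and T 1, a square for TWSD 2 and a line at the group median. The high controls of FADS1, FADS2, FADS3 and LPL are triangles (1485 CPM of FADS2 in C 11, 57.7 of LPL in C 12), and the MECR values of both TWSD libraries (226 and 117) lie above all others.

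The members were also compared with each other among the treated libraries. Over the 17 T and WSD libraries other than T 1, with each value taken as its deviation from the group mean on the log2 scale, 45 pairs of members were examined by 100000 permutations within groups. FABP5 and PLIN3 went in opposite directions (Pearson r = -0.73, permutation p = 0.0034, adjusted 0.0765, and Spearman rho = -0.79, p = 0.00032, adjusted 0.0144). Without the 2 libraries farthest from the median of FABP5, r was -0.86. T 6, with FABP5 at 1406 CPM, had PLIN3 at 86.0, and T 11, with FABP5 at 396, had PLIN3 at 191. ACLY and ABHD5 were likewise opposed (r = -0.69, rho = -0.67, permutation p = 0.0028 and 0.0064, adjusted 0.0765 and 0.144, r without 2 libraries -0.71). ACLY and SCD (r = 0.70, rho = 0.51) and ACACA and FASN (r = 0.66, rho = 0.54) varied in the same direction, at adjusted permutation p-values of 0.0896 and 0.107 for r, and r fell to 0.43 and 0.44 without 2 libraries. No pair passed 0.05 after adjustment by both measures, and r was positive in 23 of the 45 pairs. FABP5 itself had r between -0.37 and 0.38 with the other 8 members. The collection day and batch of the libraries are not in the labels, so these values could not be recomputed within batches.

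The tested genes whose log2 CPM was most like that of FABP5 over the 21 libraries other than C 8, C 11, C 12 and T 1 were RPL22L1 (r = 0.81, rho = 0.77), ANKRD55 (r = 0.76, rho = 0.68) and RPL39 (r = 0.72, rho = 0.71). RPL22L1 and RPL39 are ribosomal protein genes. None of the 3 was called in any of the 7 comparisons, and RPL22L1 had negative changes against C (-0.44 in T and -0.68 in WSD, adjusted p = 0.667 and 0.466). Over all 25 libraries the list was ATP5MC3, a subunit of ATP synthase (r = 0.92, rho = 0.72), MOGAT2, a monoacylglycerol acyltransferase (r = 0.90, rho = 0.48), and CDCA3, a cell cycle gene (r = 0.89, rho = 0.61). The choice of libraries thus set which genes were most alike, and by rank these 3 were less like FABP5 than by r.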

How the data were processed

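RNA sequencing of 25 blastocyst libraries gave 1 table of raw read counts per gene, which the authors deposited as whole numbers without normalization. The submitters' processing notes name FastQC 0.11.8, Trimmomatic 0.39, STAR 2.7.0 and the build Mmul_10. Not given in the sources used here were the counting tool, the annotation release and the strand setting, and a gene's count may hold reads of overlapping, antisense or near-identical genes. Columns were matched to samples by title. A gene name table gave symbols for 24173 of the 35395 genes.

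A gene was tested if 5 or more libraries reached 1 CPM (13934 genes), which is 14.2 counts in the shallowest library. edgeR 4.0.16 (R 4.3.3) fitted the TMM-scaled counts of the 25 libraries with group as the only term, and the biological coefficient of variation was 0.900. Its quasi-likelihood F-test with robust dispersions was adjusted by Benjamini-Hochberg across all tested genes, and a call is an adjusted p under 0.05. All adjusted p-values come from this test unless another tool is named. The code of the fit was run on simulated counts. Those held no libraries that stand apart, so that run cannot show how the test behaves in these data.

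The 10 members and the gene lists were chosen with earlier results of these data known. Named were the members, at most 5 called genes per list and comparison with C by smallest p, and the 3 genes most like FABP5 by Pearson r. PNPLA2 was named outside this rule. Alternatives were DESeq2 1.42.0 (size factors and Wald test), limma 3.58.1 voom with quality weights, library totals, other filters on low counts, the compared groups alone, the title number as a block, and fits without named libraries. Libraries with the same title number showed no sign of pairing, in a check that cannot exclude a shared mother. No sequence or coordinate is printed, since no genome of the build was used here.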

Additional observations from a re-analysis of the deposited data

Results flagged for a closer look

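In 4 of the 30 sets of values tested (each of the 10 genes in C, T and WSD) the library at one end lay far from the rest on the log2 scale by Dixon's test at 95%, where chance alone flags about 1 set in 20. ACLY in T 6 was at 202.9 CPM, with the next T library at 287. SCD in WSD 1 was at 406.5 CPM, with the next WSD library at 869. ELOVL6 in C 12 was at 0.4179 CPM, with the next control at 68.6. DGAT1 in C 12 was at 0.1045 CPM, with the next control at 26.5. T 6 and WSD 1 were the lowest of their groups for ACLY, and WSD 1 was also the highest of its group for FABP5 (830 CPM) and the lowest for PLIN3 (124 CPM).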

How the results depend on the processing

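FABP5 stayed higher in T and WSD than in C under every alternative run, and the alternatives that ended its calls are given beside them above, except the replicate block given below, where the changes were 1.25 (adjusted p = 0.848) and 1.02 (adjusted p = 0.997). The scaling moved the median log2 change of all tested genes in T against C from -0.12 (TMM) to -0.19 (DESeq2 size factors) and 0.02 (library totals), so small changes have no fixed sign. With 2 TWSD libraries that differ from each other, group values there rest on either library, and with 5 controls of which 3 stand apart, the same holds for C. Values near 0 counts, such as DGAT1 with 2 counts in C 12, carry counting error. C 12 was not a shallow library, with 27197400 counts in all. The mean level of ABHD5 in TWSD was 56.5 CPM on library totals and 62.8 with TMM scaling. The cause was not tested for any of the values below. Changes that turned sign are listed for the comparisons with C, and between treated groups for FABP5 and PLIN2. For the other members the comparisons between treated groups and the interaction are not listed, and some of them turned sign too.

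With DESeq2 size factors in edgeR, genes called were 4 in TWSD against T. There the changes that turned sign were SCD -0.072 in T against C, PLIN3 -0.027 in TWSD against C. With library totals in edgeR, genes called were 240 in T against C, 321 in WSD against C, 96 in TWSD against C, 4 in TWSD against T, 4 in TWSD against WSD, 5 in the interaction and members called were 0 in WSD against C. There the changes that turned sign were ELOVL6 0.043 in T against C, ACLY 0.012 in WSD against C, FASN 0.0057 in WSD against C, FABP5 -0.093 in TWSD against WSD. With the DESeq2 Wald test, genes called were 1102 in T against C, 1185 in WSD against C, 1995 in TWSD against C, 6 in T against WSD, 583 in TWSD against T, 574 in TWSD against WSD, 395 in the interaction and members called were 1 in TWSD against C. There the changes that turned sign were SCD -0.072 in T against C, PLIN3 -0.026 in TWSD against C. With limma voom and quality weights, genes called were 0 in T against C, 0 in WSD against C, 0 in TWSD against C, 0 in TWSD against T, 0 in TWSD against WSD, 0 in the interaction and members called were 0 in T against C, 0 in WSD against C. There the changes that turned sign were ACLY 0.23 in T against C, ELOVL6 0.0052 in T against C, DGAT1 0.027 in T against C, ACLY 0.57 in WSD against C, FASN 0.41 in WSD against C, DGAT1 0.041 in WSD against C, ACLY 0.14 in TWSD against C, SCD 0.37 in TWSD against C, ABHD5 0.22 in TWSD against C. With at least 5 CPM in 5 libraries, genes called were 11 in TWSD against WSD, 21 in the interaction. There the changes that turned sign were SCD -0.014 in T against C. With only the 2 compared groups fitted, genes called were 114 in T against C, 30 in WSD against C, 0 in TWSD against C, 1 in TWSD against T, 1 in TWSD against WSD and members called were 0 in T against C, 0 in WSD against C. Without C 8, C 11 and C 12, genes called were 0 in T against C, 1 in WSD against C, 20 in TWSD against C, 275 in TWSD against T, 335 in TWSD against WSD, 3 in the interaction and members called were 0 in T against C, 0 in WSD against C. There the changes that turned sign were ACLY 0.90 in T against C, ELOVL6 0.44 in T against C, DGAT1 0.26 in T against C, ABHD5 0.25 in T against C, FADS1 1.03 in T against C, FADS3 0.61 in T against C, ACLY 1.21 in WSD against C, FASN 0.50 in WSD against C, DGAT1 0.30 in WSD against C, ABHD5 0.20 in WSD against C, FADS2 1.00 in WSD against C, FADS3 0.81 in WSD against C, ACLY 0.77 in TWSD against C, ACACA 0.85 in TWSD against C, SCD 0.51 in TWSD against C, ABHD5 0.64 in TWSD against C. Without C 8, C 11, C 12 and T 1, genes called were 0 in T against C, 1 in WSD against C, 71 in TWSD against C, 273 in TWSD against T, 476 in TWSD against WSD and members called were 0 in T against C, 0 in WSD against C. There the changes that turned sign were ACLY 0.88 in T against C, ELOVL6 0.44 in T against C, DGAT1 0.28 in T against C, ABHD5 0.076 in T against C, FADS1 0.83 in T against C, FADS3 0.45 in T against C, ACLY 1.19 in WSD against C, FASN 0.48 in WSD against C, DGAT1 0.27 in WSD against C, ABHD5 0.18 in WSD against C, FADS2 0.97 in WSD against C, FADS3 0.79 in WSD against C, ACLY 0.76 in TWSD against C, ACACA 0.85 in TWSD against C, SCD 0.51 in TWSD against C, ABHD5 0.64 in TWSD against C. Without C 12 and TWSD 2, an alternative chosen after seeing the data, genes called were 75 in T against C, 84 in WSD against C, 1 in TWSD against C, 0 in TWSD against T, 1 in TWSD against WSD, 0 in the interaction and members called were 0 in WSD against C. There the changes that turned sign were SCD -0.17 in T against C, ACACA 0.26 in TWSD against C, SCD 0.077 in TWSD against C, PLIN2 -0.46 in TWSD against C, ABHD5 0.31 in TWSD against C, PLIN2 -0.20 in TWSD against T, FABP5 -0.10 in TWSD against WSD, PLIN2 -0.20 in TWSD against WSD. With no filter on low counts, genes called were 92 in TWSD against C, 3 in TWSD against T, 3 in TWSD against WSD, 4 in the interaction. There the changes that turned sign were SCD 0.022 in TWSD against C.

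With each library left out in turn, genes called ranged from 40 to 1287 in T against C, from 51 to 1110 in WSD against C, from 0 to 2786 in TWSD against C, from 0 to 0 in T against WSD, from 0 to 2479 in TWSD against T, from 0 to 2578 in TWSD against WSD, from 0 to 2245 in the interaction, while members called ranged from 0 to 2 in T against C, from 0 to 2 in WSD against C, from 0 to 2 in TWSD against C, from 0 to 0 in T against WSD, from 0 to 2 in TWSD against T, from 0 to 3 in TWSD against WSD, from 0 to 2 in the interaction. The changes that turned sign for at least 1 library ranged as follows: SCD from -0.18 to 0.63 in T against C, ELOVL6 from -0.35 to 0.30 in T against C, ACLY from -0.65 to 0.70 in T against C, DGAT1 from -0.53 to 0.27 in T against C, ACLY from -0.35 to 1.01 in WSD against C, FASN from -0.34 to 0.64 in WSD against C, DGAT1 from -0.49 to 0.31 in WSD against C, ACLY from -1.49 to 0.57 in TWSD against C, ACACA from -5.84 to 0.55 in TWSD against C, SCD from -0.34 to 0.61 in TWSD against C, PLIN3 from -0.16 to 0.30 in TWSD against C, ELOVL6 from -0.59 to 0.72 in TWSD against C, ABHD5 from -0.76 to 0.32 in TWSD against C, PLIN2 from -0.64 to 1.15 in TWSD against C, FABP5 from -0.36 to 0.065 in TWSD against T, PLIN2 from -0.19 to 1.60 in TWSD against T, FABP5 from -0.10 to 0.33 in TWSD against WSD, PLIN2 from -0.20 to 1.60 in TWSD against WSD.

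The title numbers showed no sign of pairing, in a check that cannot exclude a shared mother. The deviations of 16 pairs with the same number correlated at -0.376 to 0.222 (median -0.013). Of 23 libraries, 1 correlated best with its own number. With the title number as a replicate block, genes called were 0 in T against C, 0 in WSD against C, 0 in TWSD against C, 0 in TWSD against T, 0 in TWSD against WSD, 0 in the interaction and members called were 0 in T against C, 0 in WSD against C. There the changes that turned sign were ACACA -0.72 in T against C, SCD -0.59 in T against C, PLIN2 0.023 in T against C, ACACA -0.17 in WSD against C, SCD -0.28 in WSD against C, ELOVL6 -0.076 in WSD against C, PLIN2 0.041 in WSD against C, SCD 0.011 in TWSD against C, ELOVL6 -0.32 in TWSD against C, PLIN3 -0.083 in TWSD against C, ABHD5 0.53 in TWSD against C.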
